A study of Mus musculus with 4 samples.

Results

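The unfolded protein response genes examined here are 10 genes chosen by name: the stress sensors Ern1 (IRE1), Eif2ak3 (PERK) and Atf6, the transcription factors Xbp1, Atf4 and Ddit3 (CHOP), and the downstream genes Trib3, Asns, Chac1 and Ppp1r15a (GADD34). They were found by gene name among the gene spots of the array and make up 10 of 31829 genes, with 11 of 39429 probes. Livers of male C57BL/6J mice, 8 to 12 weeks old and with no genetic change named in the labels, were compared in 2 conditions: 4 mice had food removed for 24 h (fasted), and 4 mice had the same 24 h fast and then 2 h of access to food (refed). Both conditions therefore share the fast, and no mouse fed throughout was part of the comparison. RNA of 1 fasted and 1 refed liver was bound to each of 4 two-colour oligonucleotide arrays, with the fasted liver in the red dye Cy5 on replicates 1 and 2 and in the green dye Cy3 on replicates 3 and 4. Each array gave 1 ratio per probe, written throughout as log2 of the fasted over the refed level, with negative values where the fasted liver had less (n = 4 arrays).

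The endoplasmic reticulum folds the proteins that a cell secretes, and the liver secretes most plasma proteins. When unfolded protein builds up there, IRE1 cuts the Xbp1 transcript so that it is spliced into the active factor XBP1s, PERK phosphorylates eIF2α, which slows translation but favours that of ATF4, and ATF6 moves to the Golgi and is cut into a free transcription factor. ATF4 then raises Ddit3, Trib3, Asns, Chac1 and Ppp1r15a, while XBP1s and ATF6 raise chaperones and degradation factors. The array measured transcript levels only, so that splicing of Xbp1, phosphorylation of eIF2α and cutting of ATF6 were not measured.

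Of the 10 genes, 3 were lower and 1 was higher in fasted than in refed liver, and 6 did not pass both limits. The lower genes were Ddit3, by 3.5-fold, Xbp1, by 1.84-fold, and Eif2ak3, by 1.78-fold, and the higher gene was Trib3, by 1.68-fold. A probe was called where limma, fitted over all 19707 probes above background, gave an adjusted p (Benjamini-Hochberg) under 0.10 and the change was at least 1.5-fold. Over all these probes 1.7% were called higher, 2.08% were called lower and 3.78% were called either way. All 11 probes of the 10 genes were well above background in every liver, so that the filter removed none. The median log2 ratio of the 10 genes was -0.13, against -0.001 over all probes tested, and on the 4 arrays it was -0.22, -0.46, -0.06 and -0.25. These counts were set beside the background and not tested as a group. The 4 calls were lost in the fit of the background on all spots, extreme local backgrounds included, where 0 of the 10 genes were called (adjusted p of 0.173 for Xbp1 and 0.559 for the other called genes, limma), and the means of the 4 genes kept their direction, at -0.98 for Ddit3, -0.92 for Xbp1, -0.33 for Eif2ak3 and 0.54 for Trib3. All 4 were called from the authors' deposited log2 ratios (adjusted p of 0.0282 for Eif2ak3, 0.00571 for Xbp1, 0.000687 for Ddit3 and 0.057 for Trib3, limma), whose background step is not given in the sources used here, and from Agilent's processed signals, which were used without normexp.

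Each array probe is 60 bases long and reads 1 short stretch of the transcript. The first 30 bases of the probes behind the 4 called genes and of the pair for Atf4 are given 5′ to 3′ in lower case, since the values rest on these stretches. Positions of whole probes are those of the array annotation in the mm9 build, and whether a stretch is coding or untranslated was not analysed here. The Ddit3 probe was at chr10:126732518-126732821 on the plus strand, a span of 304 bases for 60 bases of probe, the Xbp1 probe at chr11:5425816-5425875 (plus), the Eif2ak3 probe at chr6:70855152-70855211 (plus) and the Trib3 probe at chr2:152163161-152163220 (minus). The Atf4 probes were at chr15:80086639-80086698 and chr15:80087902-80087961 (both plus), so that the brighter one lies nearer to the 3′ end of the transcript.
Ddit3: ccccaggaaacgaagaggaagaatcaaaaa
Xbp1: ttcttgctagtgtagcttctagaaggtgct
Eif2ak3: ggtgtacagaacgcacgtaagtgtgataac
Trib3: ggttaagtgtgtattttcatcatgtgccca
Atf4, dimmer probe: tcttcacgaaatccagcagcagtgttgctg
Atf4, brighter probe: ggtgctttgtgcttgtacatagtcttgtgt

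**Figure D1:**
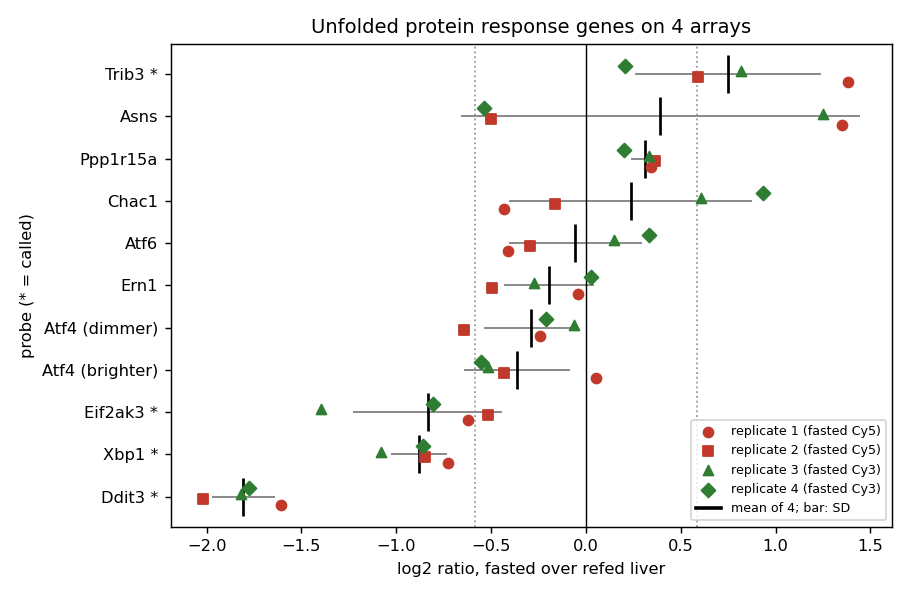
Log2 ratio of fasted over refed liver (horizontal axis) for the 11 probes of the 10 genes (vertical axis), 1 point per array with the colour giving the dye of the fasted liver, vertical ticks for the mean and grey bars for the SD of 4 arrays; dotted lines mark 1.5-fold and asterisks mark called genes. All 4 points of Ddit3, Xbp1 and Eif2ak3 lie below 0 and all 4 of Trib3 lie above it, while those of Atf6 and Chac1 differ in sign between the colours.

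Before the single genes, the arrays themselves need a description. The hepatocyte marker genes (9 of 10 listed are on the array, Alb and Ttr among them) were all well above background in all 8 livers. The refed liver of replicate 3 stood apart: 20 of 22 pancreatic acinar markers on the array were above background there, against at most 8 in the other refed livers, 13 in the fasted liver of the same array and at most 7 in the other fasted livers. Their summed signal was 46050, against at most 2593 in the other refed livers and 2502 to 3377 in the fasted livers. The acinar cell is a secretory cell rich in endoplasmic reticulum, so values without replicate 3 are given for each of the 10 genes and for each list, and the part of these cells in the results was not tested. The defining acinar factor Ptf1a was not above background in any liver. Red blood cell markers summed to between 67360 and 280900 in the fasted and between 35600 and 87590 in the refed livers, and the 4 arrays had marker medians of 2.21, -0.26, 2.41 and 0.30. In whole liver, fewer cells of a type and less RNA per cell cannot be told apart. Across probes, which are not independent replicates, the 2 arrays with the fasted liver in Cy5 had a correlation of ratios of 0.664 and the 2 arrays of the other orientation one of 0.752, and pairs of arrays that differed in orientation had 0.223 to 0.396. A dye effect at an adjusted p under 0.10 was present at 14.8% of all probes.

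Of the sensors, Eif2ak3, the kinase PERK, was called lower in the fasted liver, and Ern1 and Atf6 did not pass the test; the difference between the sensors was not tested. For Eif2ak3 the 4 log2 ratios were -0.62, -0.52, -1.396 and -0.80, with a mean of -0.83 ± 0.39 (SD, n = 4) and an adjusted p of 0.0328 in limma. Its normalised log2 signals were 8.30, 8.58, 7.98 and 8.31 in the fasted livers and 8.91, 9.10, 9.38 and 9.12 in the refed livers of replicates 1 to 4. The highest fasted liver was thus below the lowest refed liver. Such a separation of 4 from 4 was found at 13.6% of all probes. Replicate 3 gave the most negative ratio, and without it the mean was -0.65 with an adjusted p of 0.0711 in limma, still called. Without replicate 4 the mean was -0.84 with an adjusted p of 0.10, which lost the call.

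Ern1, the kinase and RNase that splices Xbp1, had ratios of -0.04, -0.50, -0.27 and 0.03. The mean was -0.19 ± 0.24 (SD, n = 4), with a 95% interval of -0.45 to 0.06 and an adjusted p of 0.359 in limma. Fasted levels of 7.85 to 8.27 overlapped the refed levels of 7.94 to 8.35. A change of 1.5-fold, which is 0.58 on this scale, lies outside that interval. Without replicate 3 the mean was -0.17 with an adjusted p of 0.645 in limma, and without replicates 1, 2 and 4 it was -0.25, -0.09 and -0.27.

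Atf6, the sensor that is itself a membrane-bound transcription factor, had ratios of -0.41 and -0.29 where the fasted liver was in Cy5, and of 0.15 and 0.33 where it was in Cy3. The mean was -0.06 ± 0.35 (SD, n = 4), with a 95% interval of -0.39 to 0.28 and an adjusted p of 0.876 in limma. The sign followed the dye and not the condition: a dye term fitted beside the condition came to -0.30 with an adjusted p of 0.0558. Fasted and refed levels overlapped, at 7.93 to 8.30 and 7.96 to 8.35, and leaving out 1 array in turn moved the mean from -0.18 to 0.06, with a positive sign without replicate 1 or 2 and -0.12 without replicate 3.

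**Figure D2:**
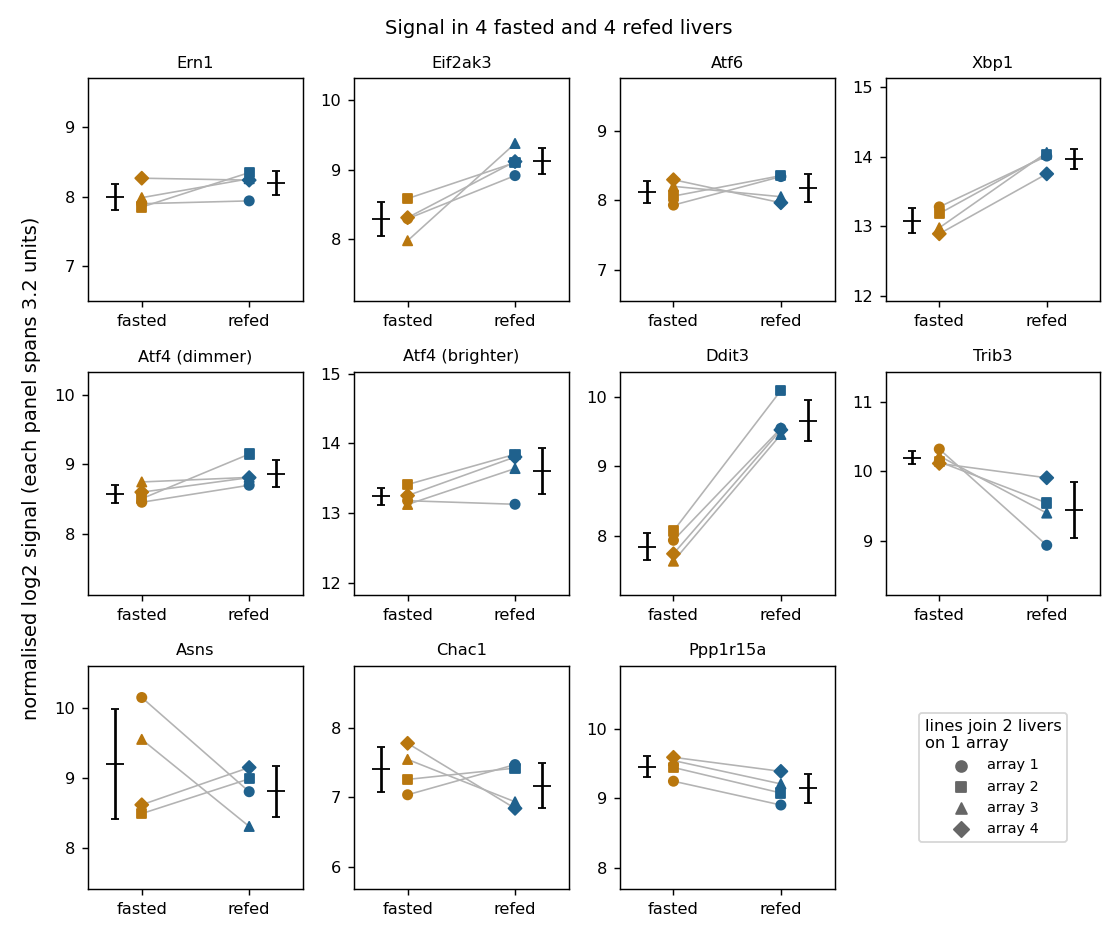
Normalised log2 signal (vertical axes; panels span equal ranges around their own midpoint, and levels are not comparable between probes) of each probe in the 4 fasted and 4 refed livers, with lines joining the livers that shared an array and black marks for the mean and SD of 4 livers. The conditions separate fully for Eif2ak3, Xbp1, Ddit3 and Trib3 and overlap for the other 7 probes.

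Among the transcription factors, Ddit3 and Xbp1 were lower in the fasted liver by margins well above the spread between arrays, and Atf4 was not called by either of its probes. Ddit3 encodes CHOP, the factor associated with cell death after prolonged stress of the endoplasmic reticulum. Its signals were 7.94, 8.07, 7.64 and 7.75 in the fasted livers and 9.55, 10.09, 9.46 and 9.52 in the refed livers. Every fasted liver lay more than 1 log2 unit below every refed liver. The ratios were -1.61, -2.02, -1.82 and -1.78, a mean of -1.81 ± 0.17 (SD, n = 4), with a 95% interval of -2.02 to -1.59 and an adjusted p of 0.00169 in limma. By size of the mean ratio Ddit3 ranked 40 among all 19707 probes. The dye effect was -0.01, and the mean without replicate 3 was -1.80 with an adjusted p of 0.010 in limma.

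Xbp1 gave signals of 13.28, 13.18, 12.98 and 12.89 in the fasted livers and of 14.01, 14.03, 14.06 and 13.75 in the refed livers. These do not overlap. The ratios were -0.73, -0.85, -1.08 and -0.86, a mean of -0.88 ± 0.15 (SD, n = 4), and the adjusted p was 0.00618 in limma. Without replicate 3 the mean was -0.81 and the adjusted p was 0.0354. The 1 probe for Xbp1 reads a single stretch of 60 bases, and spliced and unspliced transcripts were not measured apart.

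Atf4, which is controlled largely at translation, was read by a pair of probes. The brighter one gave ratios of 0.05, -0.43, -0.52 and -0.55, with a mean of -0.36 ± 0.28 (SD, n = 4), a 95% interval of -0.65 to -0.08 and an adjusted p of 0.137 in limma. The dimmer one gave -0.24, -0.64, -0.07 and -0.21, with a mean of -0.29 ± 0.25 (SD, n = 4), an interval of -0.55 to -0.03 and an adjusted p of 0.186. Both probes thus had means of the same sign, and the levels of fasted and refed livers overlapped for each. Neither passed the limit on adjusted p in this fit, which had no dye term. The array with the ratio nearest to 0 was replicate 1 for the brighter and replicate 3 for the dimmer probe. Without replicate 3 the means were -0.31 and -0.36, with adjusted p of 0.384 and 0.248 in limma, and the mean of the dimmer probe was -0.17 without replicate 2. With a dye term in limma the adjusted p was 0.0425 for the brighter and 0.0627 for the dimmer probe. Without replicate 1 the means were -0.50 and -0.305, with adjusted p of 0.0405 and 0.283 in limma. All these means stayed under 1.5-fold, so that neither probe was called.

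The 4 genes downstream of ATF4 other than Ddit3 did not move as a block: Trib3 was higher in the fasted liver, Ppp1r15a was slightly higher but under 1.5-fold, and Asns and Chac1 varied in sign from array to array. Trib3 encodes a pseudokinase that binds the kinase AKT and ATF4. Its signals in the fasted livers, 10.32, 10.14, 10.22 and 10.11, were close together, and those in the refed livers, 8.94, 9.55, 9.40 and 9.91, were all lower and more spread. The ratios of 1.38, 0.59, 0.82 and 0.21 had a mean of 0.75 ± 0.49 (SD, n = 4) and an adjusted p of 0.0689 in limma. The red blood cell markers had medians of 2.21 and 2.41 on replicates 1 and 3, where Trib3 had its highest ratios, against -0.26 and 0.30 on the others, and their part was not tested. The direction was the same on 4 of 4 arrays, but the call was lost without replicate 1 (0.54, adjusted p = 0.097 in limma), without replicate 2 (0.80, adjusted p = 0.162) and without replicate 3 (0.73, adjusted p = 0.215).

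Ppp1r15a encodes GADD34, the subunit that directs protein phosphatase to eIF2α and so reverses the signal of PERK. Its ratios of 0.34, 0.37, 0.33 and 0.20 were the least spread of all 11 probes, with a mean of 0.31 ± 0.07 (SD, n = 4), a 95% interval of 0.14 to 0.48 and an adjusted p of 0.0603 in limma. The change of 1.24-fold fell short of the limit of 1.5-fold, so that the gene was not called. Fasted levels of 9.24 to 9.59 overlapped refed levels of 8.90 to 9.39, although the fasted liver was the higher one on each array. Without replicate 3 the mean was 0.30 with an adjusted p of 0.229 in limma.

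Asns encodes asparagine synthetase, an amino acid response gene. It had the largest spread of the 10 genes: ratios of 1.35, -0.50, 1.25 and -0.54, a mean of 0.39 ± 1.05 (SD, n = 4), a 95% interval of -0.49 to 1.28 and an adjusted p of 0.616 in limma. In the fasted livers the signals were 10.15, 8.49, 9.55 and 8.61, and in the refed livers 8.80, 8.99, 8.30 and 9.15. A pair of fasted livers, those of replicates 1 and 3, was above every refed liver, and the other pair was not. These 2 arrays were of opposite dye orientation, and the dye effect was 0.03. Single arrays decided the mean: it was 0.07 without replicate 1, 0.69 without replicate 2, 0.11 without replicate 3 and 0.70 without replicate 4. The red blood cell markers had their high ratios on the same arrays, with medians of 2.21 and 2.41 against -0.26 and 0.30, and their part in the values of Asns was not tested.

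Chac1 encodes an enzyme that degrades glutathione. Its ratios were -0.43 and -0.16 with the fasted liver in Cy5 and 0.61 and 0.93 with the fasted liver in Cy3, so that the sign followed the dye as it did for Atf6. The mean was 0.24 ± 0.64 (SD, n = 4), with a 95% interval of -0.32 to 0.79 and an adjusted p of 0.63 in limma. The dye term came to -0.53 with an adjusted p of 0.0345. Fasted levels of 7.04 to 7.78 overlapped refed levels of 6.84 to 7.47, and the mean turned to -0.14 with the background fitted on all spots. Leaving out 1 array in turn gave means of 0.46, 0.37, 0.11 and 0.004 without replicates 1, 2, 3 and 4.

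**Figure D3:**
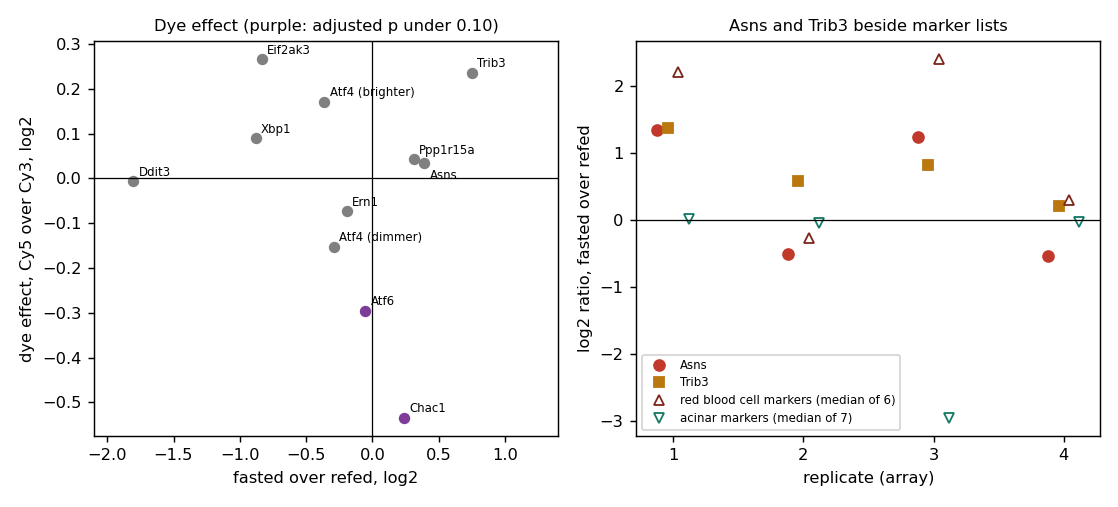
Left, the mean log2 ratio of fasted over refed liver (horizontal axis) against the dye effect, Cy5 over Cy3 on the log2 scale (vertical axis), for the 11 probes, with dye effects at an adjusted p under 0.10 in purple. Right, log2 ratios of Asns and Trib3 on each array (horizontal axis) with the medians of 6 red blood cell and 7 pancreatic acinar markers: Asns is above 0 on replicates 1 and 3, where the red blood cell markers exceed 2, and the acinar markers leave 0 on replicate 3 alone, at -2.96.

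Where sequences before the transcription start are at hand, 3 of the members hold a cAMP response element or the core of the element that ATF4 binds. RefSeq promoters of GRCm38.p6 were matched for 9 of the 10 genes (not Atf6), and the 250 bases before the start were searched on both strands. Only exact matches to the letters given were counted, so that other forms of an element, or elements elsewhere, were not looked for. The core of the C/EBP-ATF element that ATF4 binds, TGATGNAA, was found before Asns and Chac1 and in 3.45% of 32851 promoters. The cAMP response element, TGACGTCA, was found before Ppp1r15a and in 1.55% of promoters. The endoplasmic reticulum stress element (CCAAT, then 9 bases, then CCACG) was in 0.113% of promoters, the second form of it (ATTGG, 1 base, CCACG) in 0.0304% and the core of the XBP1 element (TGACGTGG) in 0.563%, and none of these was in the window of any of the 9 genes. The stretch from 20 bases before each match to the start is given 5′ to 3′ in the direction of transcription for Asns (chr6:7693210-7693252, minus strand) and Ppp1r15a (chr7:45526269-45526300, minus strand), and 20 bases on either side for Chac1 (chr2:119351029-119351076, plus strand), with the match in capitals. In Chac1 the element lies on the opposite strand, 193 to 186 bases before the start. In Asns it lies 23 to 16 and in Ppp1r15a 12 to 5 bases before the start. None of these 3 genes was called, and the matches are a description of sequence alone.
Asns: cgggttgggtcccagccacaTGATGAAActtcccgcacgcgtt
Chac1: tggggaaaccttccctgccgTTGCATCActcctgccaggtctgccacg
Ppp1r15a: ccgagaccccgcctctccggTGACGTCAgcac

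The other genes of the pathway were taken from 8 lists that leave the 10 genes out. Of 121 listed genes 107 were above background, of which 5 were called higher and 26 lower in the fasted liver, with a median of -0.19. Without replicate 3 these counts were 3 and 20 and the median was -0.20. With the mean of all kept probes of a gene in place of its brightest probe, the counts were 4 and 23. Genes called lower lay mostly in the lists of XBP1s and ATF6 targets. Over all probes 3.78% were called either way, and of the list genes a further number passed the limit on adjusted p but not that of 1.5-fold, which is given for each list that had any. The lists were drawn up with earlier results of these arrays known, so their counts are a description.

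Of the partners of the sensors, 1 gene around IRE1 and 2 around eIF2α were called. Of 6 genes around ATF6 processing none was called, with a median of -0.04, and none of the 6 was called without replicate 3 or by SAM, rebuilt as a second test; at an unadjusted p under 0.05 in limma 1 was higher and 2 were lower, and the pair that were lower, Atf6b at -0.28 and Creb3l2 at -0.38, passed the limit on adjusted p (0.0758 and 0.0521) but not 1.5-fold. Of 9 IRE1 partners and relatives 1 was called, Dnajb9 (ERdj4), a lumenal co-chaperone that represses IRE1, at -1.64 ± 0.36 (SD, n = 4; adjusted p = 0.00501 in limma). Of 16 genes for eIF2α kinases, eIF2 and its phosphatase, Dnajc3 (p58IPK), a co-chaperone known as an inhibitor of PERK, was lower at -0.84 ± 0.28 (adjusted p = 0.0176 in limma) and Ppp1cc, a catalytic subunit of protein phosphatase, was higher at 0.60 ± 0.14 (adjusted p = 0.0163 in limma). A further 3 of the 16 were lower past the limit on adjusted p but under 1.5-fold, Nck1 at -0.53, Eif2b4 at -0.52 and Ppp1r15b at -0.35 (adjusted p of 0.0198, 0.0447 and 0.0699 in limma). Ppp1cc lost its call without replicate 3, at 0.53, and the other pair kept theirs, at -1.52 for Dnajb9 and -0.86 for Dnajc3. The value of Ppp1cc is that of the brightest of 3 kept probes. It was the only list gene called higher with more than 1 kept probe, and 1 call higher was lost with the mean of all kept probes. Thus PERK and the inhibitor of PERK were both lower in the fasted liver, as were Xbp1 and the repressor of IRE1. Dnajb9 and Dnajc3 are also on the list of XBP1s targets below, so that their calls are counted in both places and are not separate results.

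Among partners of ATF4 and CHOP in the basic leucine zipper family, 2 of 9 genes were called higher in the fasted liver and none was called lower. These were Cebpb, at 1.397 ± 0.43 (SD, n = 4; adjusted p = 0.0116 in limma), and Cebpd, at 1.35 ± 0.56 (adjusted p = 0.0205), both of the C/EBP family with which CHOP and ATF4 form dimers. Both stayed called without replicate 3, at 1.397 and 1.49. Cebpa at -0.47 and Cebpg at -0.32, lower on 4 of 4 arrays, passed the limit on adjusted p (0.0787 and 0.0694 in limma) but not 1.5-fold. At an unadjusted p under 0.05 in limma 3 of the 9 were lower, SAM called none of them, and the median of the 9 genes was -0.02. Cebpb and Ddit3, whose products bind each other, had ratios of opposite sign on all 4 arrays.

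Of 20 ATF4 targets outside the 10 genes, 2 were higher and 2 lower, with a median of 0.03, and 3 more were higher past the limit on adjusted p but under 1.5-fold. The higher genes were Fgf21, a hormone of the fasted liver, at 1.11 ± 0.69 (SD, n = 4; adjusted p = 0.0557 in limma), and Slc38a2, an amino acid transporter, at 0.92 ± 0.35 (adjusted p = 0.0198). The lower genes were Nupr1, a stress-induced chromatin protein, at -0.997 ± 0.68 (adjusted p = 0.0689), and Psph, an enzyme of serine synthesis, at -0.75 ± 0.35 (adjusted p = 0.0349). Without replicate 3 only Slc38a2 of these 4 remained called, at 0.86. Of 11 aminoacyl-tRNA synthetases known as ATF4 targets 1 was lower, Wars, which charges tryptophan tRNA, at -0.82 ± 0.30 (adjusted p = 0.0198 in limma), with a list median of -0.17, and it stayed called without replicate 3, at -0.82. A further 2 synthetases were lower past the limit on adjusted p but under 1.5-fold. ATF4 targets were thus called in both directions, inside as well as outside the 10 genes.

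Of 26 XBP1s targets 11 were called lower and none higher in the fasted liver, with a median of -0.56. Without replicate 3, 9 were called lower: Edem1, Sec61g and Srprb lost their calls, and Edem3 was called there alone. SAM called none higher, and 1 was higher at an unadjusted p under 0.05 in limma. This was Wipi1, an autophagy gene, at 0.50 on average and between 0.48 and 0.53 on the 4 arrays, which passed the limit on adjusted p (0.0159) but not 1.5-fold, as did 4 targets with lower levels. The largest changes were in Syvn1 (HRD1), the ubiquitin ligase of endoplasmic reticulum degradation, at -2.33 ± 0.27 (SD, n = 4; adjusted p = 0.00169 in limma), in Dnajb9, and in Pdia6, a disulfide isomerase, at -1.12 ± 0.33 (adjusted p = 0.0124). All 12 ATF6 targets were lower, with a median of -1.37, and 10 of the 12 were called without replicate 3. The other two kept negative means there, Pdia4 at -1.03 and Hyou1 at -0.69, with an adjusted p of 0.10 and 0.15 in limma. The largest were Derl3, a degradation channel component, at -3.24 ± 0.74 (adjusted p = 0.00445), Creld2, a lumenal protein of stressed cells, at -2.94 ± 0.52 (adjusted p = 0.00276), and Sdf2l1, a partner of lumenal chaperones, at -2.61 ± 0.26 (adjusted p = 0.00169). The genes of the factors that the lists are named for had means of -0.88 for Xbp1 and -0.06 for Atf6, and the difference between factor and targets was not tested.

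**Figure D4:**
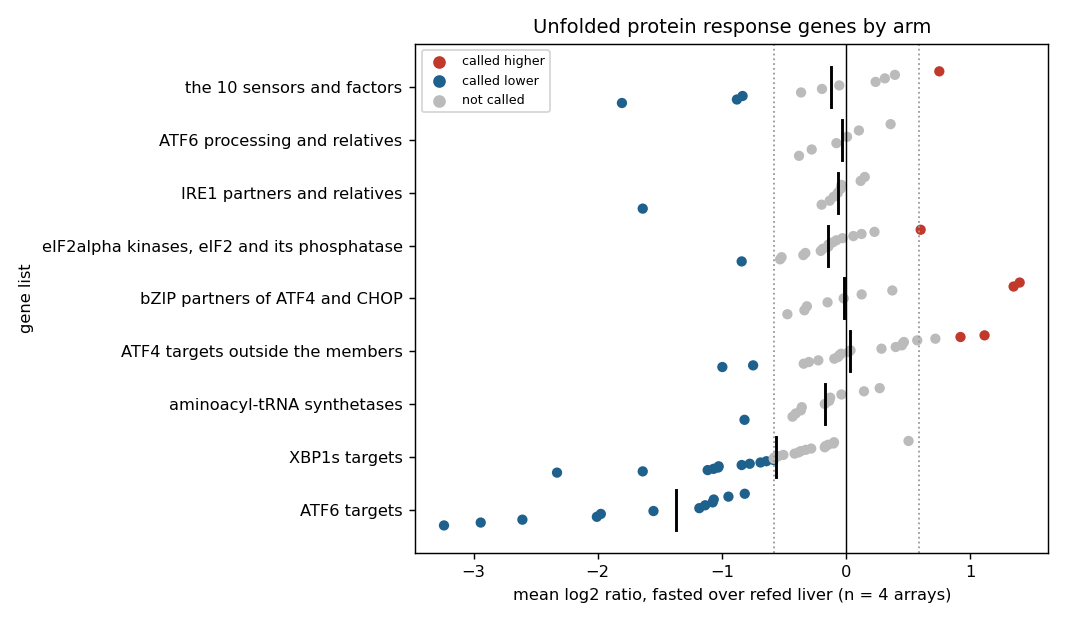
Mean log2 ratio of fasted over refed liver over 4 arrays (horizontal axis) of each gene above background in the 10 sensors and factors and in 8 lists of the pathway (vertical axis), 1 point per gene coloured by call, black ticks for list medians and dotted lines for 1.5-fold. The points of the ATF6 targets are all called lower with a median of -1.37, and those of the ATF4 targets lie on both sides of 0.

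Heat shock chaperones of the cytosol and, with Hspd1 and Hspe1, of mitochondria were listed for comparison, and 8 of 9 genes, all but Hspd1, were lower in the fasted liver, with a median of -1.33, and 5 of 9 were called without replicate 3. The largest were Hsph1, at -2.28 ± 0.35 (SD, n = 4; adjusted p = 0.00227 in limma), Hsp90aa1, at -2.08 ± 0.65 (adjusted p = 0.0109), and Hspa1a, at -1.84 ± 0.51 (adjusted p = 0.00778). Lower levels in the fasted liver were thus also found among chaperones outside the endoplasmic reticulum.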

How the data were processed

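Total RNA of single livers (200 ng each) was labelled and hybridised by the authors to an Agilent whole mouse genome array. The deposited scanner files hold raw intensity per spot, from Feature Extraction 10.10.1.1. The authors also deposited log2 ratios normalised within arrays by loess, which served as an alternative.

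Median signals of 44397 spots per array were analysed with limma 3.58.1 in R 4.3.3. Spots with a local background above 3 times the array's median were left out (55 of 177588), a limit taken from an earlier analysis of these arrays, where it was set after the data were seen. Normexp (offset 50) and loess followed, and flagged spots (197 to 322 per array) were left out. Probes well above background on all 4 arrays in at least 1 condition were kept (19707 of 39429). The 4 ratios, turned by dye, were tested with lmFit and eBayes, two-sided, and adjusted over all kept probes. Levels per liver are channel signals after Aquantile scaling. A gene was counted by its brightest kept probe. Named in the text by rule are all 10 genes and, per list, the 3 called genes of largest size. Psph, the fourth called ATF4 target, and the other list genes named outside this rule, called or not, were named after their values were seen. The members, lists and motifs were chosen with earlier results of these data known. The fit was tested on simulated data. The number of arrays limits the precision. The labels name separate livers, so that p-values measure the spread between pairs of animals. Median gene spot intensity was 40 to 75 in red and 44 to 96 in green, over backgrounds of 25 to 35 and 20 to 33. All alternatives are named in the closing section.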

Additional observations from a re-analysis of the deposited data

Results flagged for a closer look

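The median log2 ratio of the pancreatic acinar markers was -2.96 on replicate 3, against 0.02, -0.04 and -0.02 on replicates 1, 2 and 4, and the distance to the next lowest array was 0.982 of the range over the 4 arrays. This was the 1 item that stood apart among 28 examined (the 11 probes of the 10 genes and list medians among them), where chance alone sets apart about 1 in 20.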

How the results depend on the processing

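Of 220 values of the member probes under the alternatives, 203 kept their direction and their side of the threshold, 14 changed side, and 3 uncalled values (Atf6 without replicate 1 or 2, Chac1 with the background fitted on all spots) changed sign. Fitting the background on all spots changed most: 5 probes were then higher and 15 lower, no member was called in either direction (0 higher, 0 lower), 0 genes of the pathway lists were higher and 4 lower, Ddit3 came to -0.98 and Eif2ak3 to -0.33 (adjusted p = 0.559 in limma for each) and Xbp1 to -0.92 (adjusted p = 0.173). In that fit the background SD was 1080 to 4300 on replicates 3 and 4, against 0.831 to 1.84 on the others. Subtraction gave 551 higher and 713 lower probes, and Agilent's processed signals 684 and 903. A dye term gave 381 and 445, SAM 373 and 439, the deposited ratios 434 and 526, and a normexp offset of 16 gave 442 and 540. The counts were 335 and 409 with a background limit of 5 times the median, 330 and 406 with both channels above background, and 337 and 410 with flagged spots kept. Each of these gave 1 and 3 members. The mean of all kept probes of a gene did so too, with 4 genes of the lists higher and 23 lower. Median centring in place of loess gave 635 lower probes, and 26.6% of its calls were higher, against 45.0%. With no limit on fold, 936 probes were higher and 1209 lower, 2 members (Ppp1r15a besides Trib3) and 9 genes of the lists were higher, with 39 lower. At 2-fold the counts were 99 and 132 probes, 0 members higher and 1 lower (Ddit3), and 3 and 16 genes of the lists. Trib3 was not called at an adjusted p under 0.05, with no filter on dim probes (adjusted p = 0.108 in limma) or without replicate 1, 2 or 3, so that 0 members were higher there. Leaving out 1 replicate in turn gave 208 to 413 probes higher, 256 to 525 lower, 0 to 1 members higher, 2 to 3 lower, a member median of -0.23 to -0.04, and 3 to 6 genes of the lists higher and 20 to 29 lower. The lowest counts of probes came without replicate 3. With each channel taken as a separate sample and no replicate block, 341 probes were higher and 410 lower, with 1 and 3 members. The reported ratios already pair the 2 livers of an array. The cause of these changes was not tested. With 4 ratios per probe, the number of arrays limits what can be called.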
